A study of Homo sapiens with 8 samples.

Results

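The genes described here are 30 genes known as transcriptional targets or close regulators of p53, listed by name from knowledge of the pathway; no measured value enters the rule, but the list was drawn up with earlier results of these data known. All 30 were found among the 58302 genes counted, by matching Ensembl identifiers to gene symbols. The libraries came from RD cells, a human rhabdomyosarcoma line of the skeletal muscle lineage, given a short hairpin RNA: a scrambled hairpin in the 4 control libraries, a hairpin against PROX1 in the 4 shPROX1 libraries. PROX1 is a homeobox transcription factor, and the series asks what follows its silencing in this tumour type. The labels name no animal, drug or time point, and nothing in them says whether the 4 libraries of a group came from separate cultures, so the p-values measure the spread between these libraries. Both groups carry a hairpin, and each group is represented by 1 cell line and, as far as the labels say, 1 hairpin.

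p53 is a transcription factor that accumulates when DNA is damaged or growth is disturbed, binds a 20-base element made of 2 copies of a 10-base motif, and switches on genes of cell cycle arrest, apoptosis, DNA repair and metabolism. MDM2 and MDM4 hold it in check: MDM2 is a ubiquitin ligase that marks p53 for degradation and is itself a p53 target, so that the pair forms a negative feedback loop, while MDM4 binds p53 and blocks its activity. Many p53 targets also answer to other transcription factors, and a transcript level does not measure p53 activity.

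Promoter matches to the p53 element show which of these genes carry the best copy close to their start, and they are printed here because the genes moved in both directions. The promoter table of RefSeq (GRCh38.p14), with 250 bases before and 50 after each gene's start, matched 25 of the 30 genes by symbol. TNFRSF10B, TP53INP1, PHLDA3, RRM2B and GADD45A had no entry and were not searched. Each window was searched for the p53 consensus element, 2 motif copies with no base between them; the C and the G of the CNNG core had to be present in both copies, and the element reads the same on both strands. Sites with at most 4 mismatches were found in 4 of the 25 windows (16%) against 4.04% of 27305 windows of the same length, and the limit of 4 was chosen after the matches were seen. The 4 sites are given 5′ to 3′ on the strand of the gene, with capitals for bases that match the consensus.
AEN: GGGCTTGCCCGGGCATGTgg
FDXR: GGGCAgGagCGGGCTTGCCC
TRIAP1: AGGCATGCaCGGACATGaag
ZMAT3: GGGCcTGCTCcGcCAAGCaC
The AEN site (chr15:88621306-88621325, plus strand) has 2 mismatches and begins 34 bases before the start. The FDXR site (chr17:74872996-74873015, minus strand) has 3 and begins 21 bases before the start. The TRIAP1 site (chr12:120446337-120446356, minus strand) has 4 and begins 28 bases after the start, and the ZMAT3 site (chr3:179071873-179071892, minus strand) has 4 and begins 83 bases before it. At up to 3 mismatches, 2 of the 25 windows (8%) and 1.05% of all windows held a match. Distances are from the RefSeq start of each of these 4 genes, which lies inside the gene span of the deposited files, and all 4 sites fall within those spans. A match is a run of letters and does not show binding. As given below, AEN, TRIAP1 and ZMAT3 were higher in shPROX1 and FDXR was lower, so the best matches within the 25 windows stood in genes that moved in opposite directions. Elements outside these windows, or with bases between the copies, were not searched for. The genes without an entry include TP53INP1 and GADD45A, the largest fall and the largest rise of the tested members.

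Levels are given in CPM, the counts of a gene divided by the total count of its library, on the customary CPM scale, as mean ± SD of 4 libraries, and libraries are listed in the order of their replicate numbers. Libraries held 3747090 to 4865161 counts, without a difference between groups past the threshold (exact two-sided permutation p = 0.514), and 3 counts, the limit that a count of 0 allows, came to 0.617 to 0.801 CPM. Changes are log2 differences, shPROX1 minus control, ± the standard error of edgeR's quasi-likelihood fit over 12392 tested genes, and a gene is called higher or lower where its Benjamini-Hochberg adjusted p over all of them was under 0.05. PROX1 itself fell from 18.6 ± 2.58 to 8.79 ± 1.15 CPM (-1.07 ± 0.15, n = 4 per group, edgeR adjusted p = 4.89e-06). The muscle markers MYOD1 and DES were well above the filter on low counts in all libraries. The summed level of 10 muscle lineage markers was 2687 to 2797 CPM in control and 2167 to 2241 CPM in shPROX1, and of the 9 that passed the filter 7 were called lower and 0 higher (17.9% and 17.3% of all tested genes). The 5 blood markers had at most 6 counts in any library, as did 4 of 5 epithelial, 4 of 5 endothelial and 3 of 5 fibroblast markers. The remaining endothelial marker, TEK, was well detected, at 44.6 CPM in control and 41.9 CPM in shPROX1 (-0.07 ± 0.09), and was not called. The summed level of 5 fibroblast markers was 57.7 to 67.7 CPM in control and 66.1 to 83.5 in shPROX1. That sum was nearly all COL1A1 (0.24 ± 0.08) and PDGFRB (0.68 ± 0.21), both called higher. The sum of the epithelial markers, nearly all CLDN4, was 2.47 to 5.81 CPM in control and 6.75 to 8.81 in shPROX1. The part of these marker shifts in the results below was not tested, and in bulk RNA fewer cells of a type and less RNA per cell cannot be told apart.

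Silencing of PROX1 went with changes of p53 target genes in both directions. Of the 30 genes, 26 passed the filter, and 15 of these (57.7%) were called, beside 35.2% of all tested genes. Higher in shPROX1 were 7 (17.3% of all tested genes were called higher) and lower were 8 (17.9% of all tested genes were called lower). The largest falls were those of TP53INP1, FDXR, SESN1 and MDM4, and the largest rise was that of GADD45A. The changes of the 26 genes ran from -1.20 to 0.65 with a median of -0.09, and the median over all tested genes was -0.007. Calls of at least 1.5-fold were made for 6 of the 26, beside 9.51% of all tested genes: 1 higher (4.08% of all tested genes) and 5 lower (5.42%). In 14 of the 26 the CPM of the 4 control libraries did not overlap those of the 4 shPROX1 libraries, beside 32.3% of all tested genes. The plot of changes by role shows this spread.

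**Figure D1:**
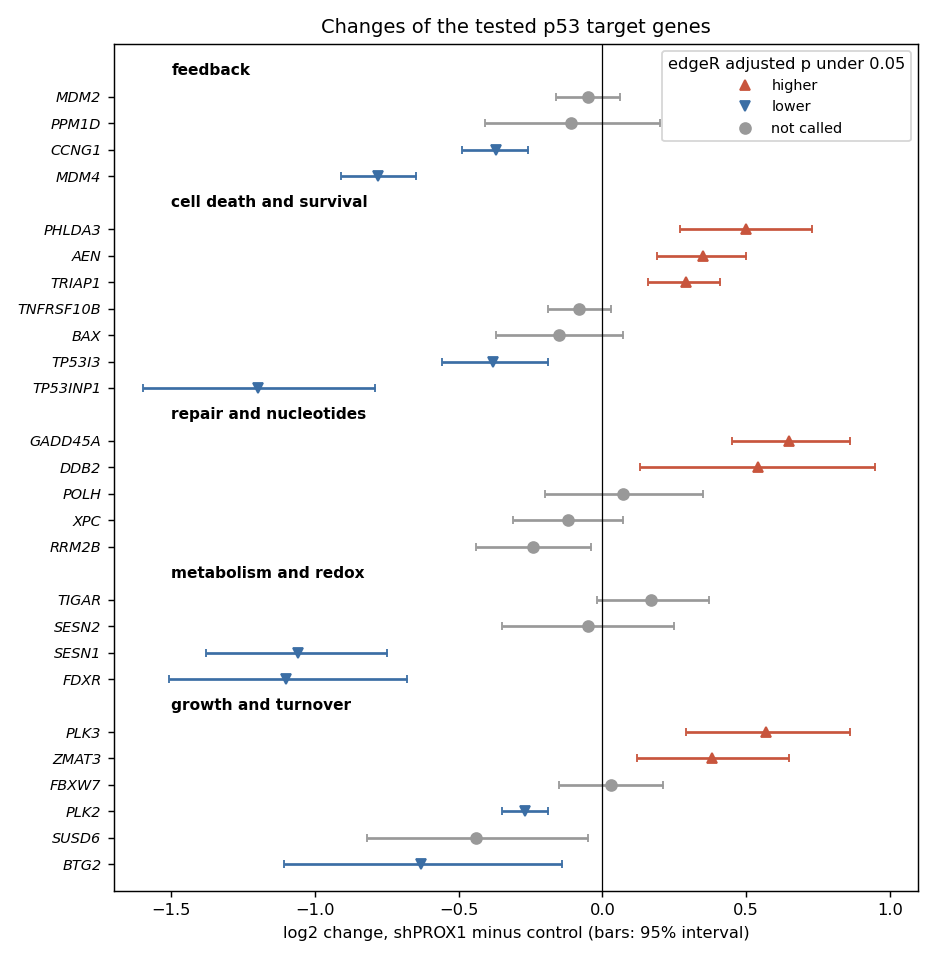
Log2 change (shPROX1 minus control, horizontal axis) of the 26 tested p53 target genes, grouped by role; points are edgeR estimates, bars their 95% intervals, and the marker gives the call. The 7 genes called higher lie between 0.29 and 0.65 and the 8 called lower between -1.20 and -0.27.

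In the feedback group, MDM4 fell while MDM2 did not pass the test. MDM4 (chromosome 1, 204516379 to 204558120, GRCh38) had 95.2, 105, 105 and 107 CPM in the control libraries and 58.2, 57.3, 63.5 and 57.0 CPM in the shPROX1 libraries. Every shPROX1 library was lower than every control library, and the level fell from 103 ± 5.31 to 59.0 ± 3.07 CPM (-0.78 ± 0.06, edgeR adjusted p = 1.00e-09), to 58.1% of control. MDM2 (chromosome 12, 68808176 to 68850686), by contrast, had 186, 207, 207 and 197 CPM in control and 200, 191, 184 and 183 CPM in shPROX1, and the groups overlapped. Its log2 change of -0.05 ± 0.05 did not pass the test (edgeR adjusted p = 0.517), and the 95% interval of the change was -0.16 to 0.06. Cyclin G1, which recruits a phosphatase to MDM2 and is encoded by CCNG1, fell from 136 ± 5.81 to 103 ± 2.74 CPM (-0.37 ± 0.05). The phosphatase gene PPM1D, whose product switches off p53 and its activating kinases, was at 17.9 ± 3.85 and 16.5 ± 2.09 CPM (-0.11 ± 0.15, edgeR adjusted p = 0.617) and did not pass.

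Genes of cell death and survival split. TP53INP1 encodes a nuclear protein that promotes p53-dependent death and autophagy (chromosome 8, 94925972 to 94949411). It had 10.8, 7.89, 8.95 and 10.3 CPM in control and 4.42, 3.43, 3.74 and 4.65 CPM in shPROX1. The groups did not overlap, and TP53INP1 fell to 43.7% of control (-1.20 ± 0.20, edgeR adjusted p = 4.61e-05), on 14 to 50 counts per library. TP53I3, an oxidoreductase of oxidative stress and apoptosis, fell from 44.1 ± 2.94 to 33.2 ± 3.39 CPM (-0.38 ± 0.09).
PHLDA3, which competes with AKT for membrane lipids and so restrains survival signals (chromosome 1, 201464383 to 201469237), had 20.5, 16.3, 15.7 and 17.7 CPM in control and 25.6, 24.5, 24.8 and 23.0 CPM in shPROX1. PHLDA3 rose without overlap between groups (0.50 ± 0.11, edgeR adjusted p = 0.00128); it shares 19.1% of its annotated exon bases with a neighbour on the same strand, AC096677.2, so its reads may have been divided or dropped in counting. The apoptosis-enhancing nuclease gene AEN rose from 63.4 ± 7.48 to 79.2 ± 3.05 CPM (0.35 ± 0.08). TRIAP1, whose small product protects cells from apoptosis, rose from 67.6 ± 1.53 to 81.1 ± 2.85 CPM (0.29 ± 0.06). Genes called higher in this group thus included both a death-promoting nuclease and a survival factor. The pore-forming effector BAX (30.2 ± 2.73 and 26.7 ± 3.42 CPM, -0.15 ± 0.11, edgeR adjusted p = 0.292) and the TRAIL death receptor TNFRSF10B (155 ± 4.55 and 144 ± 7.19 CPM, -0.08 ± 0.05, edgeR adjusted p = 0.248) did not pass.

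The remaining death genes were too low to test. The BH3-only gene BBC3 (PUMA) had a sum of 28 counts in control and 20 in shPROX1. The death receptor FAS had 6 and 4 counts, and the ectodysplasin receptor EDA2R had 2 and 0. SPATA18, a gene of mitochondrial quality control, had 0 counts in all 8 libraries. For these 4 genes, a difference between groups was not detectable at this depth. In a fit without a filter on low counts BBC3 changed by -0.37 ± 0.45 (edgeR adjusted p = 0.616) and FAS by -0.43 ± 0.96 (edgeR adjusted p = 0.807).

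**Figure D2:**
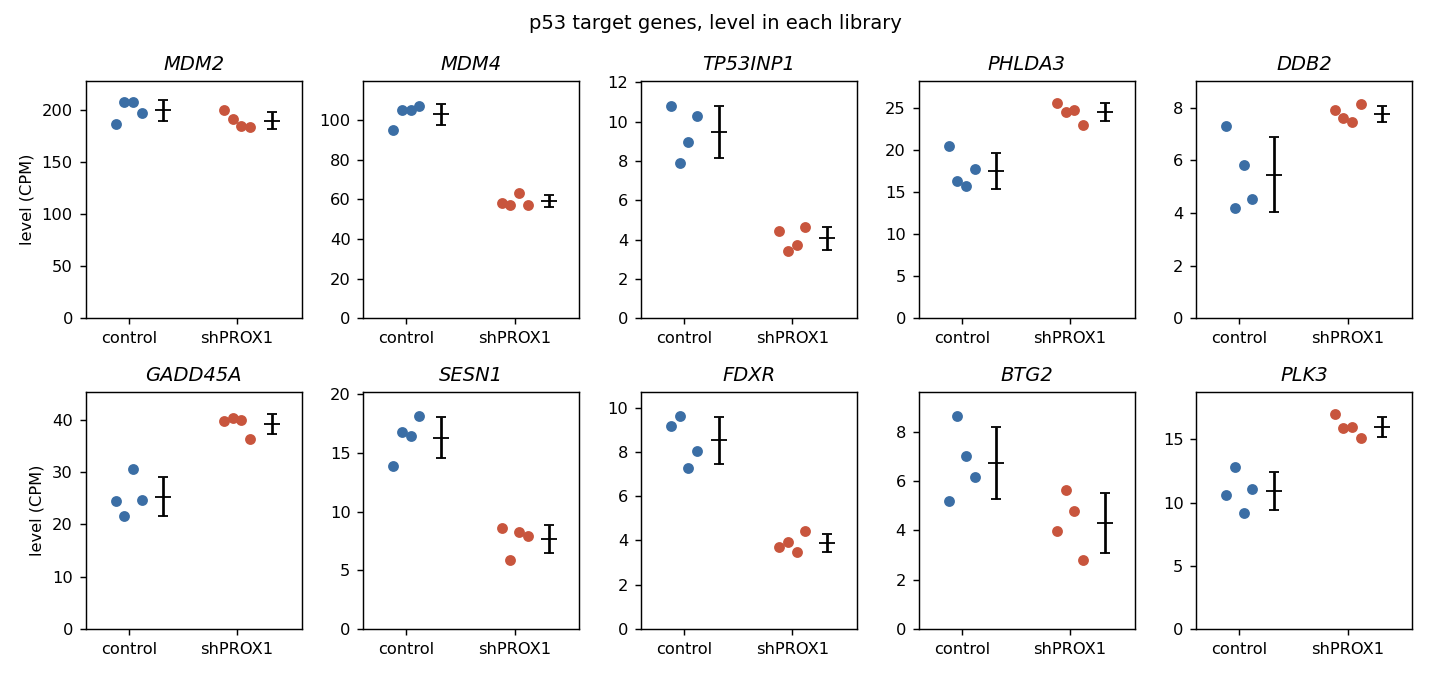
Level in each library (CPM, vertical axis from 0) of MDM2 and the 9 called p53 target genes with a log2 change of at least 0.5 in size and at least 5 CPM in either group; dots are libraries and bars are mean ± SD of 4. MDM2 and BTG2 are the genes whose groups overlap.

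Among the genes of DNA repair and nucleotide supply, 2 of 5 were called higher and 0 lower, a share (40%) near the 35.2% of all tested genes. GADD45A, a stress protein that binds PCNA and CDK1 (chromosome 1, 67685061 to 67688338), had 24.5, 21.5, 30.5 and 24.7 CPM in control and 39.8, 40.4, 40 and 36.3 CPM in shPROX1. All shPROX1 libraries lay above all control libraries, and GADD45A rose to 157% of control (0.65 ± 0.10, edgeR adjusted p = 1.77e-05). DDB2, which recognises ultraviolet damage for excision repair (chromosome 11, 47214465 to 47239240), had 7.30, 4.19, 5.81 and 4.52 CPM in control and 7.91, 7.59, 7.47 and 8.14 CPM in shPROX1. Its groups came close, with control replicate 1 just under the lowest shPROX1 library, and the change was 0.54 ± 0.20 (edgeR adjusted p = 0.0388). The DDB2 call was lost when any library other than control replicate 1 was left out (log2 change 0.44 to 0.57, edgeR adjusted p = 0.0507 to 0.123) under DESeq2 (adjusted p = 0.113) and without a filter on low counts (edgeR adjusted p = 0.0705). The damage sensor XPC (41.1 ± 5.49 and 37.3 ± 2.52 CPM, -0.12 ± 0.09) and the translesion polymerase POLH (20.3 ± 2.11 and 21.2 ± 4.44 CPM, 0.07 ± 0.13) did not pass. XPC shares 23.8% of its exon bases with AC093495.1 on the opposite strand. RRM2B, a ribonucleotide reductase subunit, was at 39.8 ± 3.91 and 33.2 ± 4.01 CPM (-0.24 ± 0.10, edgeR adjusted p = 0.0614). RRM2B did pass with scaling by total counts only (-0.26, edgeR adjusted p = 0.0398), without control replicate 3 (-0.30, edgeR adjusted p = 0.0239) or without shPROX1 replicate 4 (-0.33, edgeR adjusted p = 0.0167).

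In metabolism and redox control, 2 of 4 genes, SESN1 and FDXR, were called lower and 0 higher. Of all tested genes, 17.9% were called lower and 17.3% higher. SESN1, a sestrin that restrains mTOR signalling and oxidative stress (chromosome 6, 108986437 to 109094819), had 13.9, 16.8, 16.4 and 18.1 CPM in control and 8.61, 5.87, 8.27 and 7.90 CPM in shPROX1. The groups stood apart, with SESN1 at 47.8% of control (-1.06 ± 0.15, edgeR adjusted p = 9.21e-06). Its relative SESN2 was at 12.5 ± 1.74 and 12 ± 1.06 CPM (-0.05 ± 0.14, 95% interval -0.35 to 0.25). FDXR, the ferredoxin reductase of the mitochondrial electron chain for steroid and iron-sulfur synthesis (chromosome 17, 74862497 to 74873031), had 9.19, 9.62, 7.26 and 8.02 CPM in control and 3.72, 3.92, 3.47 and 4.42 CPM in shPROX1. FDXR fell without overlap to 46.7% of control (-1.1 ± 0.20, edgeR adjusted p = 1.51e-04). TIGAR, which lowers glycolytic flux, was at 38.7 ± 3.67 and 42.9 ± 5.39 CPM (0.17 ± 0.09, edgeR adjusted p = 0.165) and shares 42.6% of its exon bases with AC008012.1 on the same strand.

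Genes of growth control and protein or RNA turnover again went both ways. PLK3, a polo-like kinase of the stress response (chromosome 1, 44800225 to 44805990), had 10.6, 12.8, 9.19 and 11.1 CPM in control and 17.0, 15.9, 16 and 15.1 CPM in shPROX1. PLK3 rose without overlap to 149% of control (0.57 ± 0.14, edgeR adjusted p = 0.00214). Its relative PLK2 fell slightly, from 686 ± 14.9 to 560 ± 13.3 CPM (-0.27 ± 0.04, edgeR adjusted p = 1.14e-05), also without overlap.
BTG2, an antiproliferative partner of the deadenylase complex (chromosome 1, 203305491 to 203309602), had 5.18, 8.63, 7.01 and 6.17 CPM in control and 3.96, 5.63, 4.80 and 2.79 CPM in shPROX1. The BTG2 groups overlapped, and its fall (-0.63 ± 0.23, edgeR adjusted p = 0.0408) was not called without control replicate 2 (-0.49, edgeR adjusted p = 0.144), control replicate 3 (-0.61, edgeR adjusted p = 0.0812), shPROX1 replicate 1 (-0.59, edgeR adjusted p = 0.0955) or shPROX1 replicate 4 (-0.46, edgeR adjusted p = 0.154), nor under DESeq2 (adjusted p = 0.104) or without a filter on low counts (edgeR adjusted p = 0.0604). ZMAT3, an RNA-binding regulator of splicing, rose from 18.2 ± 1.83 to 23.5 ± 4.48 CPM (0.38 ± 0.13, edgeR adjusted p = 0.0229). The ZMAT3 call was lost without control replicate 2 (0.33, edgeR adjusted p = 0.0728) or shPROX1 replicate 3 (0.26, edgeR adjusted p = 0.114). The ubiquitin ligase subunit FBXW7 (48.7 ± 5.25 and 48.9 ± 5.22 CPM, 0.03 ± 0.09, edgeR adjusted p = 0.825) did not pass, nor did SUSD6 (11.7 ± 2.69 and 8.59 ± 1.84 CPM, -0.44 ± 0.19, edgeR adjusted p = 0.0748). SUSD6 passed without control replicate 2 (-0.53, edgeR adjusted p = 0.0388) or shPROX1 replicate 4 (-0.55, edgeR adjusted p = 0.0477).

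Related genes could be compared within each library, which needs no scaling between libraries. MDM4 counts were 51.3, 50.5, 50.6 and 54.3% of MDM2 counts in control and 29, 29.9, 34.6 and 31.2% in shPROX1. SESN1 counts were 109, 162, 133 and 124% of SESN2 counts in control and 72.5, 52.2, 73.8 and 58.6% in shPROX1. PLK3 counts were 1.59, 1.88, 1.33 and 1.58% of PLK2 counts in control and 2.94, 2.89, 2.86 and 2.74% in shPROX1. The groups did not overlap in any of the 3 pairs. The mean log2 ratio differed, shPROX1 minus control, by -0.73 for MDM4 over MDM2, by -1.04 for SESN1 over SESN2 and by 0.85 for PLK3 over PLK2. The pairs were chosen after the single-gene values were seen, so the ratios restate those values within libraries. For that reason no p-value is given for them.

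**Figure D3:**
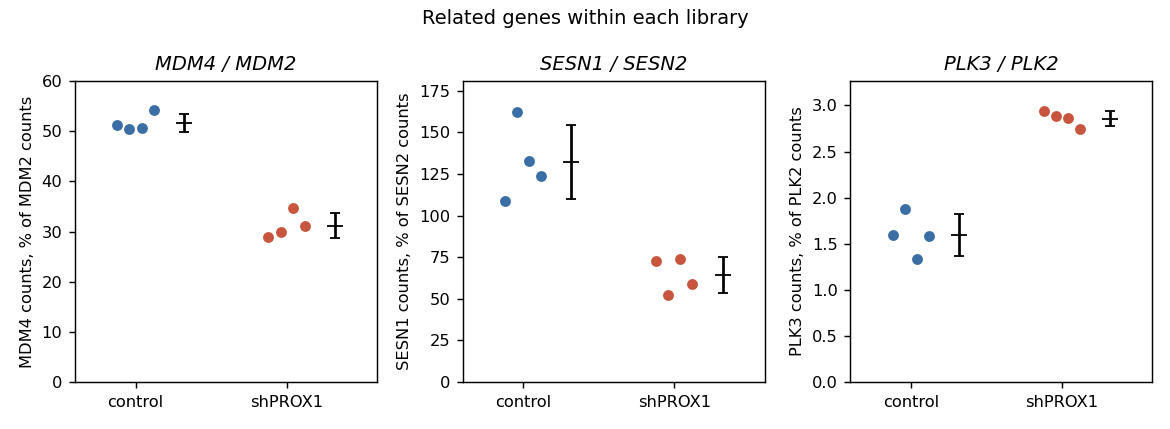
Counts of 1 gene as a percentage of the counts of its relative (vertical axis from 0) in each library, for MDM4 over MDM2, SESN1 over SESN2 and PLK3 over PLK2; dots are libraries and bars are mean ± SD of 4. The first and second ratios are lower and the third is higher in all 4 shPROX1 libraries.

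The 26 genes covered a wide range of abundance. Per kilobase of annotated exon, the mean control level was highest for PLK2 (144 CPM per kb), TRIAP1 (46.9) and CCNG1 (43.9), and TNFRSF10B (30) and MDM2 (15.0) were also abundant. The lowest of the 26 on that scale were DDB2 (1.11 CPM per kb), TP53INP1 (1.67) and ZMAT3 (1.88). PLK2 and the next gene differed by far more than the spread of their libraries, whereas TP53INP1 and ZMAT3 did not. MDM2 stood above MDM4 per kilobase in both groups (15.0 and 9.35 CPM per kb in control, 14.3 and 5.36 in shPROX1). Called genes were found from the top to the bottom of this range.

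The wider pathway was described with 3 further lists. Of 32 regulators and partners of p53, 29 passed the filter, 9 were higher and 4 lower (44.8% called, beside 35.2% of all tested genes), with a median change of 0.04. DAXX, a chaperone and corepressor (-0.24 ± 0.07), and the damage-response kinases ATM (-0.22 ± 0.05) and ATR (-0.21 ± 0.05) fell. KMT5A, a methyltransferase that modifies p53 and histone H4, rose (0.61 ± 0.05), as did DYRK2 (0.43 ± 0.06), a kinase that phosphorylates p53. The kinase HIPK2 (0.25 ± 0.10) and the p53-binding protein gene TP53BP2 (0.22 ± 0.08) were called higher. The most abundant uncalled gene was NPM1 (1994 and 2011 CPM, 0.04 ± 0.04). HIPK2 was not called without control replicate 1, 2 or 3 or shPROX1 replicate 1 or 3 (log2 change 0.14 to 0.27), nor TP53BP2 without control replicate 3 or shPROX1 replicate 2 or 3 (0.18 to 0.20). HIPK2 was also not called with upper-quartile factors (edgeR adjusted p = 0.0537), total counts only (0.0801), DESeq2 (0.0705) or limma voom (0.0588), nor TP53BP2 under DESeq2 (adjusted p = 0.0511).

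Of 73 other p53 target genes, 54 passed the filter, 16 were higher and 11 lower (50% called, beside 35.2% of all tested genes, of which 17.3% were higher and 17.9% lower), with a median change of -0.02. CDKN1A, the cyclin-dependent kinase inhibitor that carries out p53-dependent arrest (chromosome 6, 36676460 to 36687339), had 74.4, 80.6, 79.8 and 88.2 CPM in control and 115, 126, 122 and 133 CPM in shPROX1. CDKN1A was thus higher in every shPROX1 library than in every control library, at 156% of control (0.64 ± 0.06, edgeR adjusted p = 2.43e-08). The cytokines KITLG (2.33 ± 0.14) and LIF (1.1 ± 0.20), the Hedgehog acyltransferase HHAT (0.86 ± 0.15) and the GTPase RHOC (0.72 ± 0.06) showed the largest rises of that list. PANK1, which starts coenzyme A synthesis (-1.0 ± 0.14), the mTOR inhibitor DDIT4 (-0.97 ± 0.08), the adaptor TRAF4 (-0.73 ± 0.08) and VWCE (-0.64 ± 0.23) showed the largest falls. DDIT4 and DDIT4-AS1, on the opposite strand, overlap over 41.2% of the exon bases of DDIT4. The helicase gene ASCC3 (151 and 145 CPM, -0.03 ± 0.05) was the most abundant that did not pass. VWCE was not called without control replicate 3 or 4 or shPROX1 replicate 1 or 4 (-0.67 to -0.45), under DESeq2 (adjusted p = 0.105) or without a filter on low counts (edgeR adjusted p = 0.0591).

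The third list held 28 cell cycle genes that p53 represses indirectly, through CDKN1A and the DREAM repressor complex. All 28 passed the filter, 10 were higher and 1 lower in shPROX1, the median change was 0.10, and 0 of the calls reached 1.5-fold. The share called in either direction, 39.3%, was near the 35.2% of all tested genes. By direction, 10 of 28 were higher, beside 17.3% of all tested genes, and 1 of 28 lower, beside 17.9%. Changes were positive in 21 of the 28 and negative in 7. Of all tested genes, 9.51% were called at 1.5-fold or more. The 1 lower gene became 2 without control replicate 4 or shPROX1 replicate 2 and 0 without shPROX1 replicate 1. RRM2, the S-phase ribonucleotide reductase subunit, rose from 200 ± 14.2 to 244 ± 14.9 CPM (0.31 ± 0.06), with cyclin E2 (CCNE2, 0.27 ± 0.09), the kinesin KIF20A (0.26 ± 0.05) and the mitotic kinase NEK2 (0.24 ± 0.06). BIRC5, which encodes survivin, fell slightly (-0.15 ± 0.05), and the topoisomerase gene TOP2A (884 and 830 CPM, -0.07 ± 0.04) did not pass. CCNE2 lost its call without control replicate 1, 3 or 4 or shPROX1 replicate 2 or 3 (0.23 to 0.25) and under DESeq2 (adjusted p = 0.0728). BIRC5 lost its call without shPROX1 replicate 1 (-0.14) and without a filter on low counts (edgeR adjusted p = 0.0801). CCNE2 shares 37.0% of its exon bases with INTS8 on the opposite strand, and RRM2 shares 20.2% with AC007240.1 on the same strand.

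**Figure D4:**
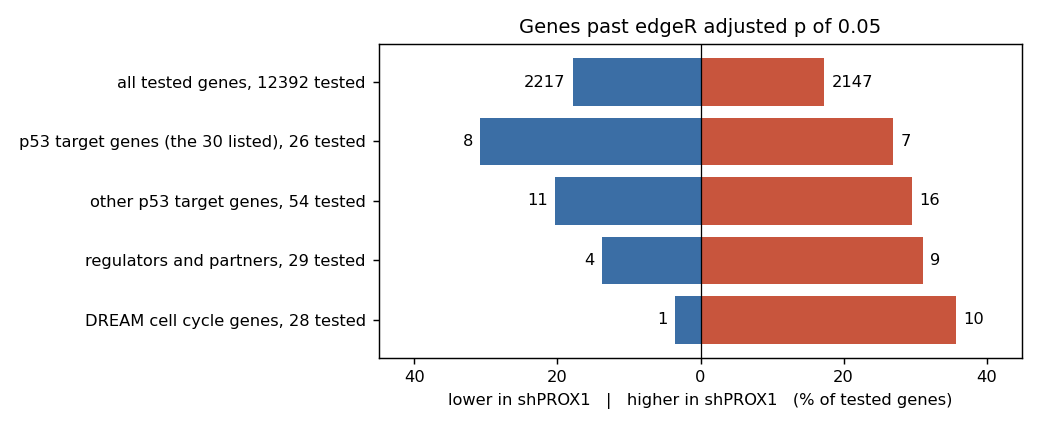
Share of tested genes called lower (left) or higher (right) in shPROX1 at an edgeR adjusted p under 0.05, in percent, for all tested genes, the p53 target genes and the other lists of the pathway; numbers beside the bars count genes. The p53 target genes split into 8 lower and 7 higher, and the cell cycle genes into 1 lower and 10 higher.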

How the data were processed

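RNA from 8 libraries of RD cells was sequenced, 4 control and 4 shPROX1, assigned to groups by sample title. Values are raw counts, deposited as 1 table per library with 1 line per gene; 0 lines lacked a gene. Of the authors' own steps, the submitters' processing notes list FastQC, HISAT2, HTSeq and DESeq2 with GRCh38 (hg38). Tool versions, annotation release and strand setting are not given in the sources used here. Reads of overlapping genes may therefore have been divided, dropped or assigned to a neighbour. Per the labels' protocols, a directional library kit was used.

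Symbols and exon lengths came from GENCODE 29 (58039 of 58302 identifiers matched). Coordinates are those of the deposited files, with starts converted to 1-based. The main test was edgeR's quasi-likelihood F test (version 4.0.16, R 4.3.3) with TMM factors, the filterByExpr filter and the group as sole covariate. P-values were adjusted by Benjamini-Hochberg over 12392 genes, and 95% intervals are unadjusted. The biological coefficient of variation was 6.41%. On simulated counts for these 12392 genes the test called 58 of 80 genes changed by 0.5 (log2), 73 of 80 changed by 1, 40 of 40 changed by 2, and 12 of 12192 unchanged genes. The simulation left 12192 of the 12392 genes unchanged and gave genes of like abundance a common spread. In the data 35.2% of the tested genes were called, so these rates need not hold for this comparison. Within groups, every pair of libraries was further apart than counting error allows, and none was treated as a copy. Chi-square per degree of freedom was 2.39 to 6.34 between control libraries and 1.19 to 2.16 between shPROX1 libraries. The shPROX1 libraries were thus closer to each other, and shPROX1 replicates 1 and 2 were the closest pair (1.19). Alternatives covered scaling, filter, threshold, tool (limma 3.58.1, DESeq2 1.42.0), replicate block and each library left out. Tables and figures used Python 3.11.15.

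The members and lists were chosen with earlier results of these data known. Values per library are given for MDM2, CDKN1A and called members changed by at least 0.5 (log2) with 5 CPM in either group. From each other list, up to 4 called genes per direction with the largest changes, at a minimum of 1 CPM, and its most abundant uncalled gene were named; 1 regulator that this rule names is not reported here.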

Additional observations from a re-analysis of the deposited data

Results flagged for a closer look

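In 114 groups of 4 values (56 named genes and PROX1, each in both groups), 3 held a library set far apart from the other 3, judged by its gap over the group's range; chance alone flags about 1 in 20 groups. The lowest GADD45A level in shPROX1 was that of replicate 4 (36.3 CPM), still above every control library. The highest ZMAT3 level in shPROX1 was that of replicate 3 (30.2 CPM), without which ZMAT3 was not called. The highest CCNE2 level in control was that of replicate 2 (36.7 CPM).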

How the results depend on the processing

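Each result was recomputed under 17 alternatives. Of the 15 called p53 target genes, 12 kept direction and call under all of them, and DDB2, BTG2 and ZMAT3 lost the call under at least 1. Of 442 values for the 26 tested genes, 412 kept direction and side of the threshold, 20 lost and 5 gained a call, and 5 turned sign, all of them in uncalled genes with 1 library left out: PPM1D (-0.21 to 0.02, turned without control replicate 4), SESN2 (-0.12 to 0.04, without control replicate 4), POLH (-0.05 to 0.16, without shPROX1 replicate 3) and FBXW7 (-0.05 to 0.08, -0.04 without control replicate 2 and -0.05 without shPROX1 replicate 1). The count of higher members was 5 to 7 and of lower members 7 to 9 with 1 library left out. At an adjusted p of 0.01, 5 regulators and 5 cell cycle genes were called higher and 0 cell cycle genes lower. Over all 12392 tested genes, that threshold called 1507 higher and 1479 lower, beside 2147 and 2217 at 0.05. The 1 lower cell cycle gene became 2 with upper-quartile factors or total counts only, 0 without a filter on low counts, and 0 to 2 with 1 library left out. With 1 library left out, 6 to 8 regulators, 15 other targets and 8 to 10 cell cycle genes were called higher. Over all genes, those fits called 1893 to 2158 higher and 1895 to 2134 lower, of 12462 to 12563 tested. The causes of these shifts were not tested. Correlations of deviations were -0.051 to 0.050 between same-numbered libraries and -0.179 to 0.129 between differently numbered ones. The main test therefore did not pair libraries by number, though these values cannot show how the libraries were prepared. With the replicate number as a block MDM4 changed by -0.78 and all genes called numbered 2075 higher and 2112 lower. BBC3, FAS, EDA2R and SPATA18 had too few counts to be tested.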

Other observations

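Among the other p53 target genes, 5 more were picked out after their values were seen. PMAIP1 (NOXA), a BH3-only death gene like the barely detected BBC3, rose from 115 ± 8.03 to 186 ± 16.9 CPM (log2 change 0.71 ± 0.06, edgeR adjusted p = 9.05e-09). PERP, a membrane protein of desmosomes and cell death, rose from 31.4 to 50.2 CPM (0.70 ± 0.08). The TRAIL decoy receptor gene TNFRSF10D rose from 15.0 to 21.3 CPM (0.52 ± 0.11), whereas the change of the death receptor TNFRSF10B did not pass the test. The receptor kinase gene EPHA2 rose from 91.0 to 127 CPM (0.50 ± 0.06), and the stress cytokine gene GDF15 fell from 30.3 to 19.6 CPM (-0.60 ± 0.11).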
